A study of Mus musculus with 5 samples.

Results

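The genes described here are 34 genes of the endoplasmic reticulum (ER), the compartment in which secreted and membrane proteins are folded: its chaperones and folding enzymes, the sensors of the unfolded protein response, the degradation machinery for misfolded proteins, and parts of the translocation and export route. They were listed by gene symbol and not by a cut on their values, though with earlier results of these data known. All 34 were found among the 18193 genes that had a single symbol on the array, and for each the brightest probe set by mean signal was read. Mouse embryonic stem cell-derived cells, differentiated on gelatin-coated plates towards a pancreatic fate, were measured on Affymetrix 3' expression arrays. The 5 groups, with 1 array each, were MPA at day 6 (2 µM for 1 day), MPA at day 8 (2 µM for 3 days), and untreated controls at day 5, day 6 and day 8. The labels do not write MPA out, and they name no strain, clone or replicate culture. With 1 array per group no difference between a pair of arrays carries an error or a p-value, and folds are given as sizes that describe these arrays.

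The ER folds most proteins with the HSP70-type chaperone BiP, which works with J-domain partners and nucleotide exchange factors, and with lectin chaperones and disulfide isomerases. When unfolded proteins build up, the sensors ATF6, IRE1 and PERK are activated: ATF6 is cut to release a transcription factor, IRE1 (gene Ern1) splices the Xbp1 transcript, and PERK (gene Eif2ak3) slows translation. ATF6 and the spliced XBP1 protein then raise the transcription of chaperone and degradation genes. Cells that secrete much, such as those of the exocrine pancreas, the islets and the liver, are known to depend on this response.

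Many genes of this response carry the ER stress response element (ERSE) in their promoters, and the sites are shown because the members can be grouped by them. Promoter windows running from 250 bases before to 50 bases after a gene's start were available for 27 of the 34 members in the RefSeq-derived table (GRCm38.p6). An exact ERSE, searched on both strands as CCAAT and CCACG with any 9 bases between them, was present in 9 of these 27 members and in 0.137% of the 27025 genes of the table. The related ERSE-II, ATTGG and CCACG with any 1 base between them, was present in 2 members and in 0.0444% of genes. It shares the CCACG letters with ERSE, and no member held both. The letters TGACGTGG, a core to which XBP1 and ATF6 are known to bind, were found in 0 members and 0.714% of genes, and TGATGCAAT, a C/EBP-ATF site bound by ATF4, in 0 members and 0.222% of genes. A match describes the letters only. In the following lines the capitals are the fixed letters of the motif, and each site is written in the direction in which the motif reads. For Dnajb11, 'after the start' means that the site ends at the start or beyond it, so it may span the start.
Hspa5, chr2:34772025-34772043, 47 bases before the start: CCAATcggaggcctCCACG
Hsp90b1, chr10:86705533-86705551, 89 bases before the start, opposite strand to the gene: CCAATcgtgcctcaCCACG
Hsp90b1, chr10:86705638-86705656, 194 bases before the start: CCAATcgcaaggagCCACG
Calr, chr8:84847075-84847093, 144 bases before the start, opposite strand to the gene: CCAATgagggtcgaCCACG
Canx, chr11:50325800-50325818, 127 bases before the start: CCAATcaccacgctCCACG
Pdia6, chr12:17266491-17266509, 80 bases before the start: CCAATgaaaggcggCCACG
Creld2, chr15:88819520-88819538, 108 bases before the start, opposite strand to the gene: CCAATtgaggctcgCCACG
Dnajc3, chr14:118937827-118937845, 87 bases before the start: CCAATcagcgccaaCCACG
Syvn1, chr19:6046532-6046550, 26 bases before the start: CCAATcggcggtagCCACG
Derl3, chr10:75893242-75893260, 138 bases before the start, opposite strand to the gene: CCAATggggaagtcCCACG
Herpud1 (ERSE-II), chr8:94386377-94386387, 42 bases before the start: ATTGGgCCACG
Dnajb11 (ERSE-II), chr16:22857852-22857862, after the start: ATTGGcCCACG

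The whole window of Hspa5, the gene of BiP, on the plus strand of chr2:34771840-34772139, shows the exact site in capitals among further CCAAT letters. The window of Herpud1, plus strand of chr8:94386179-94386478, shows the ERSE-II site.
Hspa5: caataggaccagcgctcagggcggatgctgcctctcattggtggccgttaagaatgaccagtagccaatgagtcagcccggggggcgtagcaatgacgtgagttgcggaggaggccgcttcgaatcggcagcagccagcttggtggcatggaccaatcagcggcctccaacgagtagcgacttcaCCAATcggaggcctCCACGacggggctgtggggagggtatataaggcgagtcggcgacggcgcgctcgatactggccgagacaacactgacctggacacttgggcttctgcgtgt
Herpud1: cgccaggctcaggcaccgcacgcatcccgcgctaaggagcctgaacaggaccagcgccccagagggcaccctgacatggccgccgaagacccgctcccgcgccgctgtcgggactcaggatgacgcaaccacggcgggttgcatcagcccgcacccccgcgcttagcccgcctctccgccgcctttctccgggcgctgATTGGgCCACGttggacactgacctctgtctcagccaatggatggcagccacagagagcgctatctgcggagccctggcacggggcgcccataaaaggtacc

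The deposited values were linear MAS5 signals, and a floor of 86.8, which is the median signal once control probe sets are set aside, was applied before log2. Of the 34 members, 33 lay above the floor on all 5 arrays and 28 had a mean signal of at least 1000. Signals of different probe sets are not on 1 scale, so members are compared between arrays and not with each other. Derl3 lay above the floor on 3 arrays. RNA quality, read as the ratio of the 3' to the 5' Gapdh control probe set, stood at 1.31 with MPA and 1.19 in the control at day 6, and 1.57 with MPA and 1.55 in the control at day 8, after 1.08 at day 5. The same ratio for Actb stood at 3.06 with MPA and 3.04 in the control at day 6, and 2.71 with MPA and 2.81 in the control at day 8, after 2.08 at day 5. Where a gene had a pair of probe sets with mean signals of at least 1000 (1275 genes), the log2 MPA differences of the pair disagreed by 0.19 (day 6) and 0.17 (day 8) in the median, and by up to 0.54 and 0.47 in the closest 90% of genes. Most differences of single members given here are of that size, and 27 of 41 further probe sets of members went the same way as the one used at day 6 and 25 of 41 at day 8.

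Markers of the cell types that the cultures could hold differed alongside the members. They are given as counts of markers and as summed signals, in which the brightest probe sets weigh most, and single markers were named after their values were seen. All 9 neural markers were lower with MPA at day 8 (median log2 difference -1.55) and 5 of 7 measured ones at day 6 (median -1.39). Their summed signal was 1157 with MPA and 2360 in the control at day 6, and 2722 with MPA and 11361 in the control at day 8. Of the definitive endoderm markers 6 of 7 measured were higher with MPA at day 6, and 5 of 7 at day 8. Their sum, carried at day 8 by Cdh1 and Foxa1, was 29110 with MPA and 19313 in the control at day 6, and 31868 with MPA and 18615 in the control at day 8. The other 2 at day 8 went the opposite way: Sox17 had 485 with MPA and 1550 in the control, and Cxcr4 70.7 with MPA, under the floor, and 457.1 in the control. Pancreatic and endocrine markers were higher with MPA in 5 of 5 measured at day 6 and in 7 of 9 at day 8, and summed to 1396 with MPA and 608 in the control at day 6, and to 7123 with MPA and 2356 in the control at day 8. Gcg (2572), Neurod1 (2184) and Neurog3 (1295) carried the day 8 sum with MPA. Lower at day 8 were Sst, with a log2 difference of -1.54, and Ptf1a, with 2.73 with MPA, under the floor, and 130.2 in the control. At day 6 Nkx6-1 and Ins2 lay under the floor in the control, so their differences are lower bounds. Exocrine pancreas markers were at or near the floor, 0 to 2 of 4 above it on any array, and Pdx1, the defining factor of the pancreatic bud, had signals of 3.04 with MPA and 4.08 in the control at day 6, and 90.4 with MPA and 78.6 in the control at day 8. Hepatic and yolk sac markers were higher with MPA in 5 of 6 measured at day 6 and in 1 of 4 at day 8. They summed to 3564 with MPA and 1103 in the control at day 6, where Ttr had 2415 with MPA and 342.2 in the control, and to 2754 with MPA and 2319 in the control at day 8. Mesenchyme markers were higher with MPA in 5 of 8 at day 6 and in 4 of 8 at day 8, and summed to 17054 with MPA and 15415 in the control at day 6, and to 49774 with MPA and 39530 in the control at day 8, mostly through Vim. In the controls 7 of 8 mesenchyme markers were higher at day 6 than at day 5 (median 0.82), Vim being the exception, and 8 of 8 were higher at day 8 than at day 6. Pluripotency markers were lower with MPA in 4 of 6 measured at day 6 and in 3 of 5 at day 8. Their sum was 2789 with MPA and 4549 in the control at day 6. At day 8 it was 3048 with MPA and 5337 in the control, mostly through Sox2. In the controls 6 of 7 measured were lower at day 6 than at day 5, and 3 of 6 were lower at day 8 than at day 6. Among them, Pou5f1 had 7598, 1016 and 96.0 on control days 5, 6 and 8, and Nanog 5572, 446.3 and 20.1. Sox2, which neural cells also express, had 2959, 2687 and 4784. The part of these shifts in the members' values was not tested, and in such bulk RNA fewer cells of a type and less RNA per cell cannot be told apart.

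The comparison of MPA with the control of the same day asks how the members stood after 1 and after 3 days of exposure. At day 6, 26 of the 34 members were lower with MPA and 8 were higher, with a median log2 difference of -0.22, while 48.5% of all 12240 measured genes were lower and their median was 0.02. With quantile normalization, and with the mean over probe sets, 22 were lower at day 6. At day 8, again 26 were lower and 8 higher, with a median of -0.20, against 51.9% lower and a median of -0.02 over 12599 genes. At both days 21 of 34 members were lower, where 25.8% of the 11007 genes measured at both days were. The differences were small: 5 members were 1.5-fold lower at day 6 (10.8% of all genes were) and 2 were 1.5-fold higher (12.8% of all genes). At day 8 there were 2 that were 1.5-fold lower (11.2% of all genes) and 0 that were 1.5-fold higher (11.4% of all genes). At a 2-fold difference, 1 member was lower at day 6 and 1 at day 8, where 3.15% and 3.18% of all genes were. At the same size 1 member was higher at day 6, as were 492 of all 12240 genes, and 0 at day 8, where 469 of 12599 were. Against genes with a mean signal of at least 1000, a background chosen after seeing the data, 4 of 28 members were 1.5-fold lower at day 6, where 6.73% of such genes were, and 1 of 28 at day 8, where 5.31% were. The 1.5-fold split at day 6 was 7 lower and 1 higher with quantile normalization and 8 lower and 1 higher with median centring.

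Of the 5 members that were 1.5-fold lower at day 6, 4 belonged to BiP's own machinery (Sdf2l1, Manf, Sil1 and Hyou1), and the other was Pdia6. Out of 34 members, these 5 lie near the background share of 10.8% of all genes. Whether BiP's machinery differed from the other members was not tested. Sdf2l1, which encodes a partner of the J-domain protein ERdj3, had a signal of 1031 with MPA and 1969 in the control at day 6, and of 862 with MPA and 1739 in the control at day 8. It was 1.91-fold and 2.02-fold lower, and both MPA arrays lay below all 3 control arrays, of which day 5 had 1528. Manf, an ER-resident and secreted protein that binds BiP, had 4006 with MPA and 7997 in the control at day 6 (1.996-fold lower), and 4539 with MPA and 5962 in the control at day 8 (1.31-fold lower). It too was lower on both MPA arrays than on any control array, with 6104 at day 5. On the probe sets used, the same held for Sil1, Atf6, Sec61a1, Tram1, Edem1 and Dnajb11. The share of all genes with this order of arrays was not counted.

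Hspa5, the BiP gene itself, had signals of 31259 with MPA and 42028 in the control at day 6, and of 33688 with MPA and 42335 in the control at day 8. That is 1.34-fold and 1.26-fold lower, with both MPA arrays between the day 5 control (30001) and the later controls. With quantile normalization the log2 difference at day 6 was -0.16 in place of -0.43, and with the mean over probe sets -0.02. A second probe set of Hspa5 had log2 differences of -0.45 and -0.33, beside -0.43 and -0.33 on the one used, and the dimmest of 0.81 and -1.10. Sil1 and Hyou1 encode nucleotide exchange factors of BiP. Sil1 had 245.7 with MPA and 498.2 in the control at day 6 (2.03-fold lower, the 1 member lower by 2-fold), and 333.7 with MPA and 424.3 in the control at day 8. Its log2 difference at day 6 was -0.36 with the floor at the 75th percentile, and with median centring Sil1 (-1.10), Manf (-1.08) and Sdf2l1 (-1.02) all passed 2-fold. Hyou1 was 1.77-fold lower at day 6, with 1025 with MPA and 1812 in the control, and 1.21-fold higher at day 8, with 1631 with MPA and 1353 in the control. Its other probe sets were dim: 1 was higher by 0.33 on the log2 scale at day 6 and another lower by 0.66 at day 8, and the mean over probe sets gave -0.17 and -0.13.

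**Figure D1:**
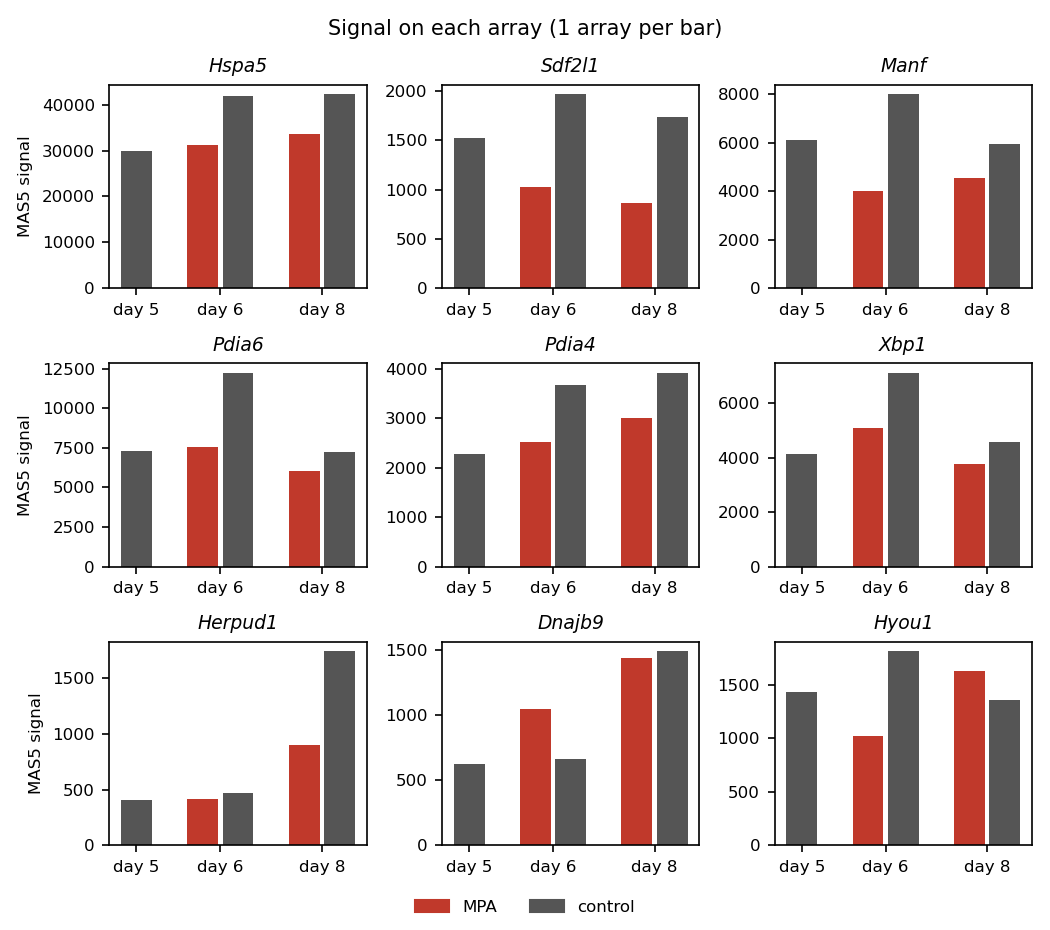
MAS5 signal of 9 members on each array (y axis, linear, from 0), with MPA left of the control of the same day and the day 5 control first. Each bar is 1 array, so there are no error bars; Sdf2l1 and Manf are lower on both MPA arrays than on all 3 control arrays, and Herpud1 stands at 901 with MPA and 1741 in the control at day 8.

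The J-domain partners of BiP did not share a direction. Dnajb9 (ERdj4) had 1049 with MPA and 662 in the control at day 6, 1.58-fold higher, and 1441 with MPA and 1492 in the control at day 8. Dnajc10 (ERdj5, which reduces disulfide bonds) had 5671 with MPA and 4383 in the control at day 6, and 3394 with MPA and 3476 in the control at day 8. Its other 2 probe sets were higher at day 6 as well, by 0.34 and 0.62 on the log2 scale. Dnajb11 (ERdj3) and Dnajc3 (p58IPK) were instead lower mainly at day 8 on the probe sets used. Dnajb11 had 1324 with MPA and 1985 in the control at day 8 (1.499-fold lower) and 1374 with MPA and 1420 in the control at day 6. Dnajc3 had 1909 with MPA and 2642 in the control at day 8, and 2010 with MPA and 2241 in the control at day 6. Its next brightest probe set had log2 differences of -0.55 at day 6 and -0.63 at day 8, so the days were alike there. The dimmer ones had -0.18, 0.35 and 0.53 at day 6.

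The HSP90 and lectin chaperones were slightly lower on both days in 3 of 3 cases, except that Canx (calnexin) at day 6 turned to 0.05 on the log2 scale with quantile normalization, to 0.20 with the mean over probe sets and to 0.25 without probe sets ending in _s_at, _x_at or _a_at. Hsp90b1 (GRP94) had 12040 with MPA and 14568 in the control at day 6, and 10173 with MPA and 12536 in the control at day 8. The differences of Calr (calreticulin) were -0.26 and -0.07 on the log2 scale and those of Canx -0.08 and -0.12, below the disagreement of up to 0.54 and 0.47 seen between probe sets of a gene. The other 2 probe sets of Canx were higher at day 6, by 0.25 and 0.43. With quantile normalization the day 6 differences of Hsp90b1 and Calr were -0.14 and -0.12. Folding enzymes differed by member. Pdia6, a disulfide isomerase, had 7542 with MPA and 12239 in the control at day 6 (1.62-fold lower), and 6025 with MPA and 7259 in the control at day 8 (1.21-fold lower). Pdia4 had 2529 with MPA and 3672 in the control at day 6, and 3003 with MPA and 3924 in the control at day 8. These were the lowest of the group, and Creld2, an ER protein induced by stress, followed with log2 differences of -0.17 and -0.33. P4hb, the classical disulfide isomerase and a subunit of the collagen prolyl hydroxylase, had differences of -0.05 and 0.21, Ppib (cyclophilin B) -0.14 and 0.14, and Pdia3, which works with the lectin chaperones, 0.15 and -0.07.

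Of the 3 sensors, Atf6 was lower at both days on the probe set used, with 313.3 with MPA and 466.1 in the control at day 6, and 311.9 with MPA and 417.6 in the control at day 8. Both of its dimmer probe sets were higher at day 8, by 0.35 and 0.18, and the mean over probe sets was 0.04. With the floor at the 75th percentile its differences were -0.26 and -0.10. Eif2ak3 went both ways, with 734 with MPA and 1054 in the control at day 6 (1.44-fold lower), and 1331 with MPA and 956 in the control at day 8 (1.39-fold higher). Ern1 was dim and slightly higher, with 243.3 with MPA and 180.1 in the control at day 6, and 505.2 with MPA and 481.1 in the control at day 8. Xbp1, the transcript that the Ern1 product splices, had 5094 with MPA and 7126 in the control at day 6 (1.40-fold lower), and 3785 with MPA and 4591 in the control at day 8 (1.21-fold lower). The next brightest probe set of Xbp1 had log2 differences of -0.58 at day 6 and 0.05 at day 8, so the day 8 direction was not shared there. The dimmer ones were lower at both days. Splicing of Xbp1 was not analysed here.

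Degradation genes went both ways, with 4 of 7 lower at each day. With the mean over probe sets 2 of 7 were lower at day 6 and 1 of 7 at day 8. Herpud1, the gene of an adaptor protein of the ubiquitin ligase complex in the ER membrane, had 901 with MPA and 1741 in the control at day 8, 1.93-fold lower, and 415.2 with MPA and 469.5 in the control at day 6. Its other probe set was lower by 0.88 on the log2 scale at day 8 and higher by 0.88 at day 6. Edem1, which marks misfolded glycoproteins for disposal, had log2 differences of -0.42 and -0.23. Its other, dimmer probe set had -0.36 and 0.51, so the direction at day 8 was not shared. The ubiquitin ligase gene Syvn1 (HRD1) had 0.32 and -0.02, and Sel1l, its partner, -0.38 and 0.19. Derl1 and Derl2, derlins of the export channel, had -0.06 and -0.10, and 0.15 and 0.22. Derl3 had 176.2 with MPA and 51.9 in the control at day 6, at least 2.03-fold higher because the control lay at the floor, and 101.0 with MPA and 87.4 in the control at day 8. The translocation genes were lower at both days in 4 of 4 cases on the probe sets used, except that Sec61a1 at day 6 turned to 0.05 with the mean over probe sets and to 0.13 without probe sets ending in _s_at, _x_at or _a_at. All further measured probe sets of Sec61a1 were higher at day 6, by 0.03 to 0.30, and they went both ways at day 8. The next brightest probe set of Ssr1 was higher at day 8, by 0.31. Sec61a1 and Sec61b, subunits of the protein channel, had log2 differences of -0.42 and -0.34, and of -0.46 and -0.20. Tram1 had -0.44 and -0.12 and Ssr1, of the translocon-associated complex, -0.05 and -0.20. Sec23b, of the COPII coat that carries cargo out of the ER, had 0.33 and -0.23.

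**Figure D2:**
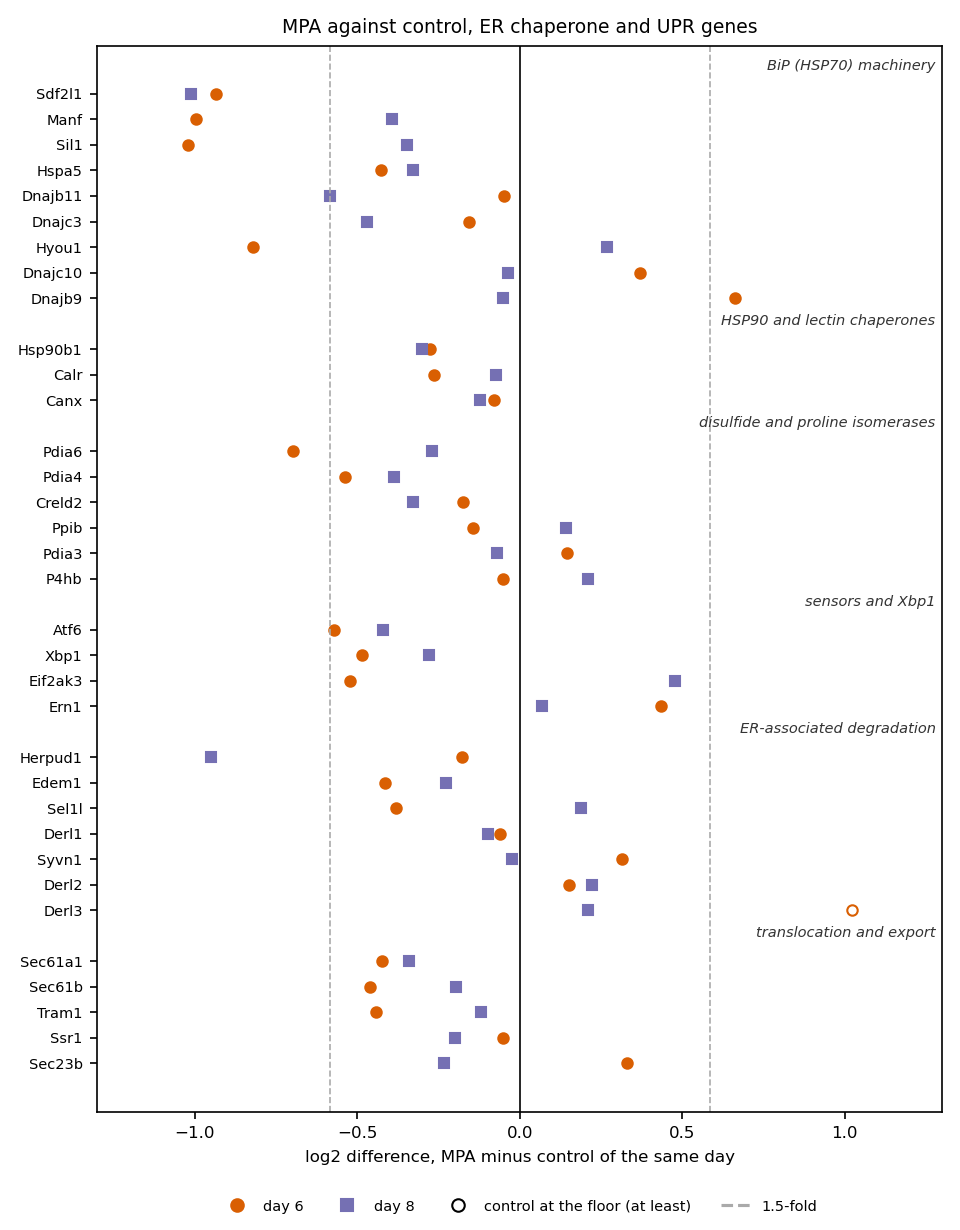
Log2 difference of MPA minus control (x axis) for each of the 34 members (rows, grouped by role), with circles for day 6 and squares for day 8, 1 array pair per point. Most points lie between 0 and the dashed line of a 1.5-fold lower signal; 26 members are left of 0 at each day, and the open circle of Derl3 is a lower bound.

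A fit in limma that joined both days, 4 arrays in all and a term for the day, asked which differences were alike at both days. It has 1 residual degree of freedom per gene, draws part of its error from the other genes, and measures no spread between cultures. With Benjamini-Hochberg adjustment over all 11599 genes, 0 of the 34 members passed 0.05, where 0.00862% of all genes did (1 gene, which is no member). The lowest adjusted p in limma was 0.509 for Sdf2l1, lower by 0.97 (log2, SE 0.24) and lower at both days. At an unadjusted p under 0.05 there were 6 members, all lower with MPA (Sdf2l1, Manf, Hspa5, Pdia6, Pdia4 and Sec61a1), and 739 of all genes. Over the 12 settings run, 0 members passed in each, and between 1 and 6 had an unadjusted p under 0.05.

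The controls show how the members stood as differentiation went on without MPA. At day 6, 28 of 33 measured members were higher than at day 5, where 51.6% of all 12611 genes were, with a median of 0.23 against 0.02. The members 1.5-fold higher numbered 4 (14.5% of all genes), 1 was 1.5-fold lower (12.4%), and 0 were 2-fold higher (5.46%). All 6 folding enzymes were higher, with a median of 0.57. Creld2 had 1122 at day 5, 1950 at day 6 and 1985 at day 8, a 1.74-fold step at day 6 with a like value at day 8. Pdia4 had 2271, 3672 and 3924 on the same 3 arrays, and Hspa5 30001, 42028 and 42335. Of Hspa5's probe sets a second was higher at day 6 by 1.27 on the log2 scale and the dimmest lower by 0.37.

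Other members were highest at day 6 on the probe sets used. Pdia6 had 7271 at day 5, 12239 at day 6 and 7259 at day 8, Xbp1 4139, 7126 and 4591, and Calr 11629, 17336 and 11122. The further probe sets of Calr were also higher at day 6 than at day 5, by 0.33 and 0.29 on the log2 scale. From day 6 to day 8 they differed by -0.08 and 0.08 only, so the later fall of Calr was not seen on them. Of the further probe sets of Xbp1, both that ended in _s_at or _a_at were higher at day 6 as well, by 0.84 and 1.01, while the dimmest was lower by 0.15. The day 6 control array is shared by this step and by the MPA comparison of that day, so its values enter both differences with opposite sign. Set against the day 5 control, the day 6 MPA array was close for Pdia6 (7542 against 7271), Hspa5 (31259 against 30001), Pdia4 (2529 against 2271) and Dnajc3 (2010 against 2009), and lower for Manf (4006 against 6104) and Sdf2l1 (1031 against 1528). It was higher for Xbp1 (5094 against 4139) and Calr (14428 against 11629), and for Creld2, Dnajb9 and Dnajc10 by 0.62, 0.75 and 0.60 on the log2 scale. Of the 34 members, 21 were higher on that array than on the day 5 control and 13 lower, with a median of 0.04.

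From day 6 to day 8 the members went both ways. Of 34, 15 were higher (51.3% of all 12824 genes were) and 19 lower, with a median of -0.13 against 0.02. The median turned to 0.087 without probe sets ending in _s_at, _x_at or _a_at, and was -0.00020 with the mean over probe sets. There were 5 that were 1.5-fold higher (17.2% of all genes) and 5 that were 1.5-fold lower (16.0%), and 3 that were 2-fold higher (7.07%). Out of 34 members, these counts lie near the background shares. With quantile normalization the 1.5-fold split was 4 higher and 2 lower. Degradation genes were higher in 6 of 7 cases, by a median of 0.11. Among them, Derl3 (at least 0.01, with its day 6 control at the floor), Derl1 (0.10) and Edem1 (0.11) differed little. With the mean over probe sets Edem1 had -0.29. Herpud1 had 404.0 at day 5, 469.5 at day 6 and 1741 at day 8, a 3.71-fold step after day 6, and its other probe set was higher by 2.12 on the log2 scale. Sel1l had 1063, 1071 and 2009, and Syvn1 691, 747 and 1154, each higher at day 8 by 1.88-fold and 1.55-fold. With the mean over probe sets the log2 differences of Sel1l and Ern1 at this step were 0.14 and 0.25. Dnajb9 had 622, 662 and 1492 (2.25-fold higher at day 8), and Ern1 274.2, 180.1 and 481.1 (2.67-fold higher). The 5 that were 1.5-fold lower were Pdia6, P4hb, Calr, Xbp1 and Sec61b. Averaged over probe sets, Pdia6, Calr and Xbp1 had log2 differences of -0.38, -0.21 and -0.40 at this step. P4hb had 10662, 14448 and 8690 at the 3 days, and Sec61b 15182, 14802 and 9610.

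Over the whole course, day 8 against day 5, 21 of 34 members were higher (52.6% of 12784 genes), with a median of 0.17 against 0.04. The 7 that were 1.5-fold higher (20.2% of all genes) were Herpud1, Dnajb9, Sel1l, Ern1, Creld2, Pdia4 and Syvn1, and Herpud1 (4.31-fold) and Dnajb9 (2.40-fold) were the 2 that were 2-fold higher (9.61% of all genes). Sec61b was the 1 member 1.5-fold lower (16.6% of all genes), and with quantile normalization the count was 0. The 7 of 34 members that were 1.5-fold higher lie near the background share, and the counts 2-fold higher and 1.5-fold lower lie under theirs. The values of day 8 stand beside a Gapdh 3'/5' ratio of 1.55, against 1.08 at day 5, whose part in them was not tested.

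**Figure D3:**
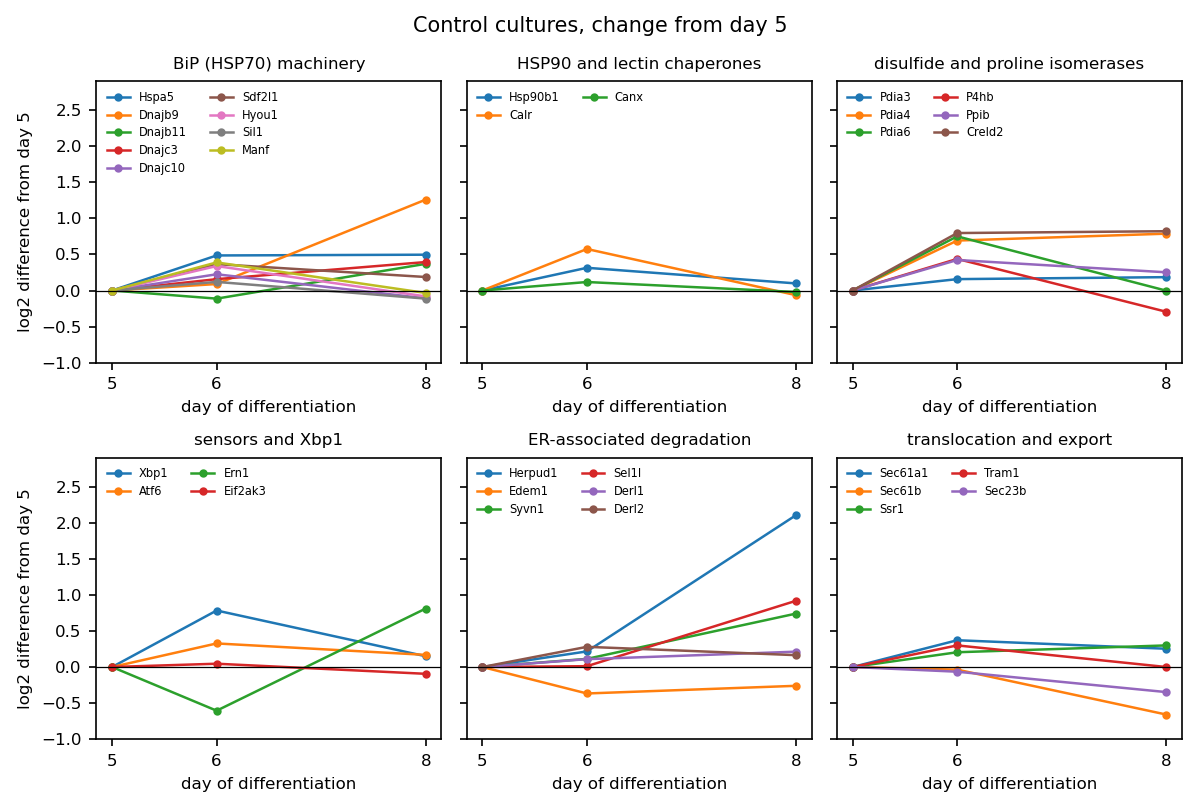
Log2 difference from day 5 (y axis) at day 5, day 6 and day 8 (x axis) in the control cultures, 1 line per member and 1 array per point, in panels by role. Folding enzymes and Xbp1 are high at day 6, and Herpud1 reaches 2.11 and Dnajb9 1.26 at day 8; Derl3, at the floor on days 5 and 6, is not drawn.

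Members with an exact ERSE were lower with MPA in 7 of 9 cases at day 6 (median -0.17) and in 8 of 9 at day 8 (median -0.27). Those 16 with a promoter window but neither ERSE nor ERSE-II were lower in 10 at day 6 (median -0.10) and in 10 at day 8 (median -0.06). The 7 members without a window in the table (Manf, Sil1, Hyou1, Atf6, Sec61a1, Tram1 and Derl1), which could belong to either class, were lower in 7 of 7 cases at day 6 (median -0.57) and in 6 of 7 at day 8 (median -0.34). Both members with ERSE-II, Herpud1 and Dnajb11, were lower at both days. In the controls, 8 of 8 measured members with ERSE were higher at day 6 than at day 5 (median 0.40), as were 12 of 16 with neither element (median 0.18). The difference between these classes was not tested, and they overlapped: Sdf2l1, the member with the lowest mean MPA difference, held neither element in this window.

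**Figure D4:**
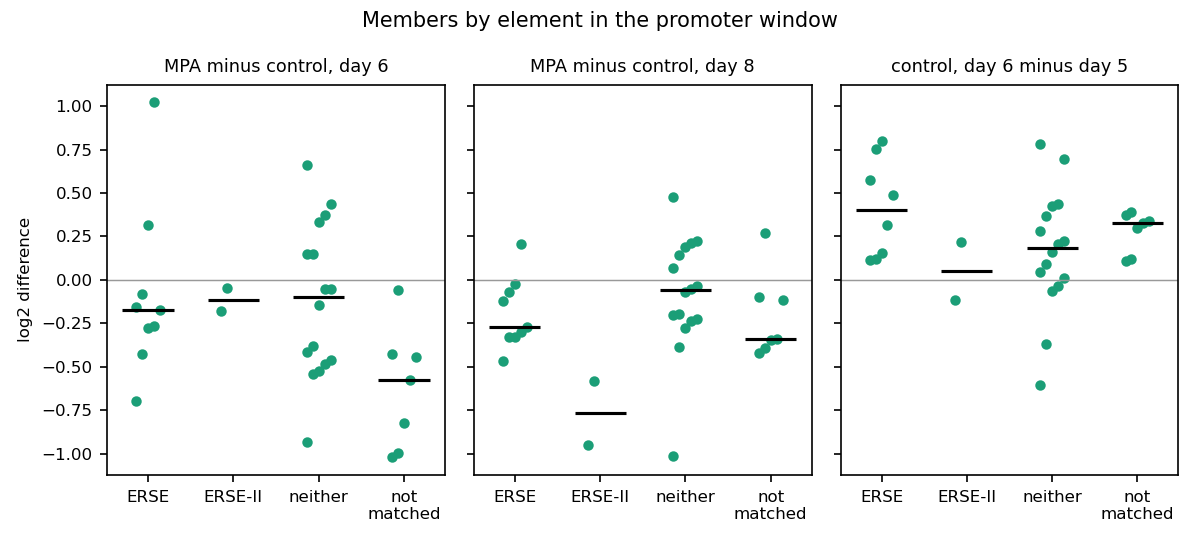
Log2 differences (y axis) of the members by the element in their promoter window (x axis), for MPA minus control at day 6 and at day 8 and for control day 6 minus day 5. Points are members, bars are medians (-0.17, -0.27 and 0.40 for ERSE; -0.10, -0.06 and 0.18 for neither), and the classes overlap in each panel.

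Other genes of the same compartment were taken from 4 lists. Among other ER chaperones and folding enzymes, 22 of 28 measured were lower with MPA at day 6 (median -0.42), and 11 of 27 at day 8 (median 0.08). Their named genes were Fkbp2, a proline isomerase with log2 differences of -1.04 and -0.43, Nucb2 with -0.99 and -0.72, Dnajc25, lower by at least 0.97 at day 6 and with -0.77 at day 8, and Clgn (calmegin, a relative of calnexin), with 0.81 at day 6 and at least 0.98 at day 8. Of the translocation, glycosylation and COPII genes 29 of 40 were lower at day 6 (median -0.21) and 23 of 40 at day 8 (median -0.04). Spcs3, of the signal peptidase, had -0.73 and -0.37, Rpn2, of the oligosaccharyl transferase, -0.70 and -0.17, the cargo receptor gene Lman1 -0.64 and -0.13, and the coat gene Sec24a 0.60 and 0.28. The other degradation genes were not lower, with 7 of 21 lower at day 6 (median 0.10) and 11 of 21 at day 8 (median -0.04). Ngly1 had 1.08 and 0.12, Ufd1 0.44 and 0.72, Faf2 0.79 and 0.12, and Fam8a1 0.30 and 0.45.

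Other signalling genes, of the ATF6, IRE1 and PERK arms and the CREB3 family, were lower in 12 of 22 cases at day 6 (median -0.01) and in 10 of 21 at day 8 (median 0.06). Chac1, a target of ATF4 and CHOP, had 129.9 with MPA and 403.0 in the control at day 6 and 484.0 with MPA and 659.9 in the control at day 8. Ddit3, the gene of CHOP, had 446.8 with MPA and 750.4 in the control at day 6, and 651.0 with MPA and 890.9 in the control at day 8. Ppp1r15a (GADD34), which restores translation, was higher, with 235.5 with MPA and 149.1 in the control at day 6, and 356.6 with MPA and 182.5 in the control at day 8. Crebrf had log2 differences of -1.62 and -0.01. In the limma fit, 0 of the 109 genes tested from these lists passed adjusted over all genes (lowest adjusted p 0.647, Fkbp2), and at an unadjusted p under 0.05 there were 6 lower and 1 higher (6.42% of the 109, where 6.37% of all genes were). In the controls at day 6 against day 5, 23 of 28 of the other chaperones were higher (median 0.43), 32 of 40 of the translocation group (median 0.29), 14 of 21 degradation genes (median 0.17) and 13 of 22 signalling genes (median 0.11).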

How the data were processed

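Gene expression was measured on 5 Affymetrix arrays, 1 per group, and samples were grouped by the labels. Per the labels' protocols, 100 ng of total RNA per sample was amplified and labelled with biotin. The intensity values deposited by the authors are linear, 1 for every probe set, made with MAS5 per the submitters' processing notes, whose version is not stated there. Of 45101 probe sets, 64 controls were dropped, as was every probe set without exactly 1 gene symbol. Each of 18193 genes took its probe set with the highest mean signal. Signals were raised to the floor of 86.8 and taken to log2. A gene counted in a comparison if either array lay above the floor, and folds of 1.5 and 2 were counted.

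The limma fit (limma 3.58.1, R 4.3.3; lmFit, eBayes with trend and robust) took genes exceeding the floor on 2 or more of 4 arrays and was tested on simulated data. Its p-values set the mean MPA difference of both days against an error. That error comes from how far the days disagree, moderated by eBayes over all genes tested. It holds no spread between cultures, since nothing says that cultures were repeated. Other steps used Python 3.11.15, numpy 2.4.6 and pandas 2.3.3. The number of arrays limits precision.

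Members and lists were chosen with earlier results of these data known. All members are named. Genes of the 4 other lists were named by the largest mean MPA difference, up to 4 per list. Of their 123 listed symbols, older ones included, 111 were on the array. Promoter windows came from RefSeq (GRCm38.p6). Alternatives covered scaling, floors, probe set choice and the limma settings.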

Additional observations from a re-analysis of the deposited data

Results flagged for a closer look

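A pair of results draws attention because the MPA difference turned between the days, in the only array pair of each day. Hyou1 had a log2 difference of -0.82 at day 6 and 0.27 at day 8, on 1 _s_at probe set. With the mean over its probe sets, the others of which are dim, it had -0.17 and -0.13, so that the turn was not seen. Eif2ak3, the PERK gene, had -0.52 at day 6 and 0.48 at day 8. Both were picked as members with opposite directions of at least 0.25 at each day, and with 1 array per group the difference between the days was not tested.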

How the results depend on the processing

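With 1 array per group the differences carry no error, and signals near the floor of 86.8 are the least certain. Over the 7 alternatives, members lower with MPA numbered 22 to 26 at day 6 and at day 8 where 32 or more were measured, and 18 of 28 and 24 of 29 without probe sets ending in _s_at, _x_at or _a_at. Both medians stayed below 0 (-0.30 to -0.15 and -0.23 to -0.13). The count of members passing the limma fit was 0 under all 11 alternatives. Among the 1.5-fold counts, those lower with MPA at day 6 became 8 with median centring, and those higher became 1 with quantile normalization, with median centring and with the floor at the 75th percentile. At day 8 the median was -0.13 with that floor, and 4 members were 1.5-fold lower with the mean over probe sets. For control day 6 against day 5, 0 members were 1.5-fold lower with that floor, with log2(signal + floor) and with the mean over probe sets, and the last gave 2 that were 1.5-fold higher and a median of 0.12. For day 8 against day 6, 2 were 1.5-fold lower with quantile normalization, with the mean over probe sets and without probe sets ending in _s_at, _x_at or _a_at, and 2 were 1.5-fold higher with the mean. The median of that step was -0.058, -0.00020 and 0.087 in the same order, so its sign turned. For day 8 against day 5, 0 were 1.5-fold lower with quantile normalization, and the median was 0.088 with median centring. Without the _s_at, _x_at and _a_at probe sets only the dimmest one of Xbp1 is left, and its log2 differences turned to -0.15 (day 6 against 5) and 0.32 (day 8 against 6). As a background chosen after seeing the data, genes with a mean signal of at least 1000 had medians of 7.6e-05 at day 6 and -0.04 at day 8 for MPA against control. The causes of these moves were not tested. The limma fit already pairs MPA with the control of the same day, and no replicate number links arrays further.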
